A study of Saccharomyces cerevisiae with 6 samples.

Results

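The transcriptome of the control strain was described from the 2 arrays whose titles give the plasmid pYX212 with no insert, out of 6 arrays in the series. These arrays were hybridised with total RNA of CEN.PK113-7D, a laboratory reference strain of Saccharomyces cerevisiae, transformed with the empty plasmid. The cultures were grown in chemostats at the critical dilution rate, on minimal medium with 10 g/L glucose as the carbon source. The other 4 arrays came from strains whose pYX212 plasmid carried NOX or AOX, and they are used here only for the spread within each pair. Every probe set that the array's annotation tied to 1 S. cerevisiae gene was read, which gave 5498 probe sets for 5449 genes. No numeric dilution rate is stated, and the labels leave unsaid whether the 2 arrays came from separate cultures, so the spread between them may be technical. Only 1 condition was described, so no test was possible, and each error is the difference or the SD between 2 arrays.

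In a chemostat the dilution rate sets the growth rate, and glucose is fed at the rate at which it is used. Baker's yeast respires glucose fully at low growth rates and starts to ferment part of it to ethanol above the critical dilution rate, an onset known as overflow or the Crabtree effect. High external glucose is known to repress genes for respiration, gluconeogenesis, the glyoxylate cycle and the use of other carbon sources, mainly through the repressor Mig1 and the kinase Snf1. Many steps of central metabolism are encoded by gene pairs, of which 1 copy is known to be used in fermentation or in air and the other under other conditions.

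Levels are deposited probe set intensities on a linear scale, given as the value on array 1 and then on array 2. They are not scaled by transcript length, and in a bulk culture fewer cells with a transcript and less of it per cell cannot be told apart. The median gene stood at 526 and 531, and the brightest at 14315 and 14205. Named probe sets that were not tied to a single S. cerevisiae gene, such as those for the fission yeast that this array design also carries, served as background (1747 probe sets, medians 12.8 and 12.8). A gene is described as well above background where it exceeded the 95th percentile of these probe sets, which was 40.5 on array 1 and 43.8 on array 2. By this rule 5169 of 5449 genes (94.9%) were well above background on both arrays, 21 on 1 array and 259 (4.75%) on neither. The label also covers genes only just past the threshold, and passing it does not by itself show that a gene is expressed. The arrays agreed closely: the absolute log2 difference between them had a median of 0.03 over S. cerevisiae probe sets, against 0.14 for the NOX pair and 0.07 for the AOX pair. No value was identical on both control arrays.

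An intensity depends on how well its probes bind as well as on the transcript, so the order of 2 genes is uncertain by more than the difference between arrays. The 47 genes with more than 1 probe set gave a measure of this. The brightest and dimmest probe sets of the same gene differed by a median of 1.49-fold and by 6.24-fold (2.64 on the log2 scale) at the 90th percentile. In all but 2 of these genes the comparison involves a probe set that the manufacturer's suffix marks as shared with other transcripts, so the limit includes shared binding. The array's control probe sets for the 5′ end, middle and 3′ end of 8 genes gave ranges of 1.24-fold to 3.90-fold within a gene. Below, a ratio between 2 genes is said to exceed the probe effect where it is above 6.24-fold. Smaller ratios held on both arrays but cannot be read as an order of transcript levels.

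The plot of all genes by rank shows how the levels spread from the brightest gene to the background, with the positions of genes that are described below.

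**Figure D1:**
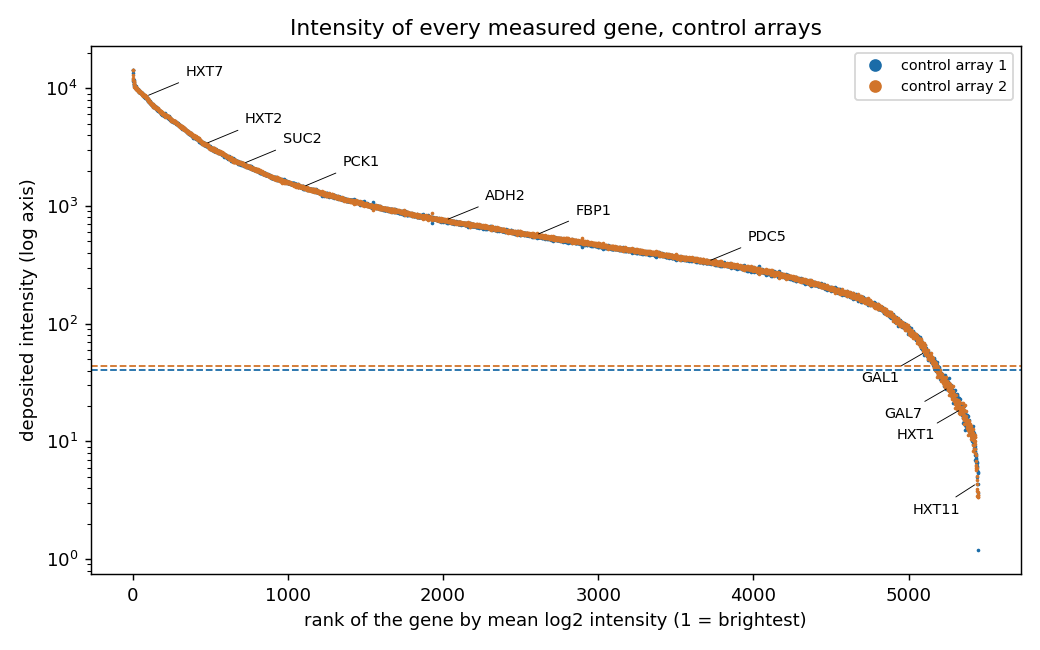
Deposited intensity (log axis) of 5449 S. cerevisiae genes against their rank by mean log2 intensity, with 1 point per gene for each of the 2 control arrays and dashed lines at the background threshold of each array (40.5 and 43.8). The curve falls gradually through the middle ranks, and GAL7, HXT1 and HXT11 lie under the thresholds while PCK1, ADH2 and FBP1 lie well above them.

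The highest intensity was that of TDH3, the main glyceraldehyde 3-phosphate dehydrogenase, at 14315 and 14205. TEF2, which encodes translation elongation factor 1A, followed at 14295 and 14166, from a probe set marked as shared. CCW12, a cell wall mannoprotein, came next at 13369 and 13050.3. TEF2 was lower than TDH3 on each array by less than the difference between the arrays, and CCW12 was lower than both on each array. All 3 lay within the probe effect of each other, so that their order is not one of transcript levels.

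Of the 30 brightest genes, 18 encoded cytosolic ribosomal proteins. They were RPL2A (12095 and 12252), RPL10, RPS15, RPS4B, RPS8A, RPL18B, RPS21B, RPS3, RPL5, RPL4A, RPL7A, RPP0, RPL28, RPS12, RPL41A, RPS13, RPS6B and RPS21A (9779.7 and 9787). The others were the glycolytic genes FBA1 (aldolase) and PGK1 (phosphoglycerate kinase), the ribosome-bound chaperone SSB1, the NADP glutamate dehydrogenase GDH1, actin (ACT1), the small membrane protein HOR7, the translation-associated TMA19, the ATP synthase subunit ATP2 and URA3. Neighbours in this order overlapped between arrays in 20 of 29 cases, and 9 of the 30 probe sets carried the suffix for shared transcripts. The 100 brightest genes held 15.0% and 14.9% of the summed intensity of all genes, and 51 of them encoded ribosomal proteins. The 100 brightest genes were short, with a median length of 844.5 bp against 1236 bp over all genes.

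URA3, the orotidine phosphate decarboxylase gene that is the marker of the plasmid, ranked 12 at 10310.5 and 10511. The array's separate control probe sets for URA3 read 9538 and 9806 at the 5′ end, 8479 and 8429 in the middle, and 7539 and 7210.1 at the 3′ end. All 4 probe sets for this gene were thus in the upper range of the array. Whether the transcript came from the plasmid or the chromosome was not tested.

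The strain's mating type markers were checked, since CEN.PK113-7D is known as a haploid of mating type a. All 6 genes of the a type were well above background, as were 94.9% of all genes. They were led by the pheromone genes MFA2 (4988 and 5180.1) and MFA1 (2670.4 and 2785) and the receptor gene STE2 (3817 and 3769.8). STE6, the a-factor exporter, read 1137 and 1107, the protease gene BAR1 847 and 815 and ASG7 140.4 and 138. The 4 genes of the alpha type read 179 and 187 for SAG1, 139.8 and 139 for STE3, 79.8 and 87.0 for MF(ALPHA)1 and 27.4 and 31.05 for MF(ALPHA)2. The last was under the threshold on both arrays. The 3 others exceeded it but lay under the all-gene median, so that passing the threshold does not by itself show that a gene is in use. Summed over its members, the a list of 6 genes read 13598 and 13794 and the alpha list of 4 genes 426 and 444. Most of the a sum came from MFA2, STE2 and MFA1. ASG7, of the a type, also lay under the all-gene median, lower than SAG1 and close to STE3.

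Glucose enters the cell through the hexose transporters, whose members differ in affinity. HXT7, a high-affinity transporter, was the brightest at 8367 and 8623 and ranked 81 of 5449. HXT2, also induced at low glucose, read 3327 and 3379.8. HXT3, a low-affinity transporter, read 991 and 936, and HXT1, the low-affinity transporter of high glucose, read 16.7 and 21.1 and was not well above background. The probe set of HXT7 is marked as shared and HXT6 is a near-identical copy, so its value is uncertain and may hold both. HXT7 exceeded HXT3 by 8.82-fold (log2 3.14 ± 0.09, SD, n = 2), more than the probe effect. It exceeded HXT2 by 2.53-fold, which is less. Against HXT1 the ratio was at least 202-fold, with HXT1 set at the threshold.

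Between these ends stood HXT4 (359 and 356), HXT5 (204 and 209), HXT9 (122 and 135) and HXT8 (88.0 and 98.8). HXT17 (35.2 and 36.2), HXT10 (32.7 and 37.7), HXT14 (27.5 and 23.8), HXT15 (12.9 and 11.2), HXT13 (11.9 and 8.68) and HXT11 (5.48 and 3.39) were, like HXT1, under the threshold on both arrays. Thus 7 of 14 measured transporter genes were not well above background on both arrays, against 5.14% (280) of all genes. HXT9, HXT15 and HXT17 were read by shared probe sets, HXT17 also overlapped HXT10 between arrays, and values under the threshold have no order. The glucose sensors SNF3, of low glucose, and RGT2, of high glucose, read 486 and 523 for SNF3, and 244 and 252 for RGT2, both well above background. HXT6, HXT12 and HXT16 were not analysed here.

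**Figure D2:**
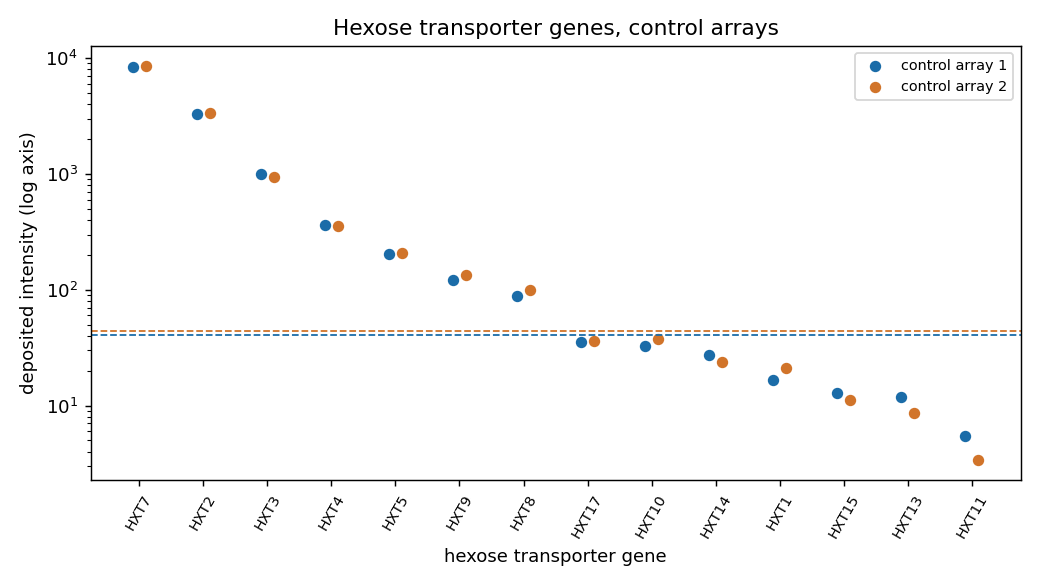
Deposited intensity (log axis) of 14 hexose transporter genes on the 2 control arrays, ordered by mean, with 1 point per array and dashed lines at each array's background threshold. HXT7 and HXT2 stand highest, and the 7 genes from HXT17 to HXT11 lie under the lines.

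Most genes of sugar phosphorylation and glycolysis were bright. Of 16 measured glycolytic genes, 14 were among the 545 brightest genes, a group that holds 10.0% of all genes by definition, and the list had a median of 6402 and 6492. Of the kinases that trap glucose, HXK1, which is repressed by high glucose, read 6603 and 6682, HXK2, known as the form of growth on glucose, read 6201 and 6302, and the glucokinase GLK1 read 4423 and 4480.0. HXK1 was the brighter of the hexokinases on both arrays, but by only 1.06-fold, so that neither can be called the main one. The phosphofructokinase subunits PFK1 and PFK2 read 4068 and 4146 for PFK1, and 4216 and 4218 for PFK2, a ratio of 1.03-fold. After FBA1 (10376 and 10053), the triose phosphate isomerase TPI1 (9820.5 and 9605) and PGK1 (9919 and 9981), the phosphoglycerate mutase GPM1 read 9567 and 9753.

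Paralogs in lower glycolysis were further apart. GPM1 exceeded its paralogs GPM3 (211 and 211) and GPM2 (201 and 204) by 45.7-fold and 47.8-fold. CDC19, the pyruvate kinase of growth on glucose, read 7777 and 7812 and exceeded its glucose-repressed paralog PYK2 (348 and 346) by 22.5-fold (log2 4.49 ± 0.01, SD, n = 2). TDH3 exceeded TDH1 (2229 and 2307) by 6.29-fold, just past the probe effect, and without array 1 or with a pseudocount of 64 it fell just short. The array's control probe sets also read TDH1, at 1201 and 1181 for the 5′ end and 671 and 649.6 for the middle. The 3′ end read 2392 and 2408, so that these control values ranged over 3.64-fold within the gene. A middle probe set marked as shared read 10775 and 10778. ENO2, the enolase of growth on glucose, read 8697 and 8788 and ENO1 3225 and 3238, a ratio of 2.71-fold that is within the probe effect. TDH2 was not analysed here, and whether its transcript adds to the TDH3 value was not tested.

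At the pyruvate branch PDC1, the main pyruvate decarboxylase, read 8713 and 8689.6, PDC5 330.3 and 344 and PDC6 104 and 115. PDC1 exceeded PDC5 by 25.8-fold and PDC6 by 79.7-fold, both beyond the probe effect. ADH1, which reduces acetaldehyde to ethanol, read 9623 and 9635 and ranked 36. ADH3, the mitochondrial enzyme, read 5157 and 5225, lower than ADH1 by 1.85-fold and so within the probe effect. ADH5 read 571 and 586 and ADH4 453 and 456. ADH2, the glucose-repressed enzyme that oxidises ethanol, read 765 and 743, above the median gene and 18.9 and 17.0 times the threshold. ADH1 exceeded ADH2 by 12.8-fold (log2 3.68 ± 0.03, SD, n = 2). The threshold does not measure binding from a brighter paralog. Whether ADH1 transcript adds to the ADH2 value, or PDC1 transcript to that of PDC5, was not tested. SFA1, of formaldehyde and alcohol metabolism, read 1139 and 1129.7.

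Acetyl-CoA can be made from acetaldehyde in the cytosol or from pyruvate in the mitochondria, and genes of both routes were measured. The aldehyde dehydrogenases ALD4, of the mitochondria, and ALD6, of the cytosol, read 7380.0 and 7486 for ALD4, and 6442 and 6537 for ALD6, a ratio of 1.15-fold. ALD5, also mitochondrial, read 1652 and 1653, while the stress-induced cytosolic forms ALD2 (201 and 199) and ALD3 (54.4 and 52.0) stood more than the probe effect below ALD4, and ALD3 lay just above the threshold. ACS2, the acetyl-CoA synthetase of growth on glucose, read 5856 and 5849.8, and ACS1, the glucose-repressed form, 993 and 1009.6, a ratio of 5.85-fold. The pyruvate dehydrogenase subunit genes PDA1, PDB1 and LAT1 read 6366 and 6431 for PDA1, 4721 and 4622 for PDB1, and 4716 and 4818 for LAT1. Of the mitochondrial pyruvate carrier, MPC2 read 3809 and 4033, MPC3, the subunit of respiratory growth, 3635 and 3587, and MPC1 836 and 864. The pyruvate carboxylases PYC1 and PYC2 read 5764 and 5921 for PYC1, and 2378 and 2469.9 for PYC2. Over the list of ethanol and acetate formation, 6 of 14 genes were among the 545 brightest. All 14 were well above background on both arrays, as were 94.9% of all genes.

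The nuclear genes of respiration were also bright. The pyruvate dehydrogenase and TCA cycle list had 18 of 20 measured genes among the 545 brightest, complexes III and IV with cytochrome c had 17 of 20, and the ATP synthase had 16 of 17. Their medians were 5945 and 5959, 5982 and 6003, and 5433 and 5406, against 6402 and 6492 for glycolysis, and the lists were not tested against each other. CIT1, the mitochondrial citrate synthase, ranked 35 at 9638 and 9627, next to ADH1, and CYC1, the main cytochrome c of aerobic growth, ranked 37 at 9579 and 9505. CIT1 and ADH1 overlapped between arrays and have no order, and CYC1 lay below both on each array.

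In the TCA cycle CIT1 was followed by FUM1 (fumarase, 8598 and 8476) and ACO1 (aconitase, 7664 and 7906). CIT2, the peroxisomal citrate synthase that the retrograde pathway induces, read 5053 and 5034, and CIT3 395 and 397. CIT1 exceeded CIT2 by 1.91-fold, within the probe effect, and CIT3 by 24.3-fold. MDH1, the mitochondrial malate dehydrogenase, read 6399 and 6397, the peroxisomal MDH3 2432 and 2375 and the cytosolic, glucose-repressed MDH2 977 and 962, so that MDH1 exceeded MDH2 by 6.60-fold. Among the NADP isocitrate dehydrogenases, the cytosolic, glucose-repressed IDP2 read 4136 and 4119, the mitochondrial IDP1 3464 and 3547 and the peroxisomal IDP3 194 and 188. The lowest members of the list were CIT3 and PDX1, a component of pyruvate dehydrogenase, at 925 and 959.7. The fumarate reductases OSM1 and FRD1 read 507 and 514 for OSM1, and 449 and 454 for FRD1.

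Of complexes III and IV, QCR7 (8291 and 8450.4), a subunit of complex III, followed CYC1. COX5A, the aerobic form of subunit 5 of cytochrome oxidase, read 7010.2 and 7198, and COX5B, its hypoxic form, 67.5 and 74.96, the lowest of the list. Their ratio was 99.85-fold (log2 6.64 ± 0.08, SD, n = 2). It was the largest between first and second members of any of the 38 pairs or families with 2 or more measured members. COX5B was not far above the threshold, and across the alternatives tried the log2 ratio ran from 5.73 to 6.93. CYC1 exceeded the hypoxic CYC7 (198 and 199) by 48.1-fold. PET9, the ADP/ATP carrier of aerobic growth, read 9047 and 9339.5, and exceeded AAC1 (904 and 924) by 10.1-fold and the hypoxic AAC3 (157 and 179) by 54.8-fold. QCR8 read 743 and 771, below the other core subunits of complex III in the list, while the remaining 17 genes were among the 545 brightest. In the ATP synthase, ATP2 (9806 and 9713) and ATP1 (9230.1 and 9084), the catalytic core subunits, led, and the regulators STF1 (3229 and 3327) and STF2 (1771 and 1664) were the lowest. Genes of the mitochondrial genome were not analysed here.

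**Figure D3:**
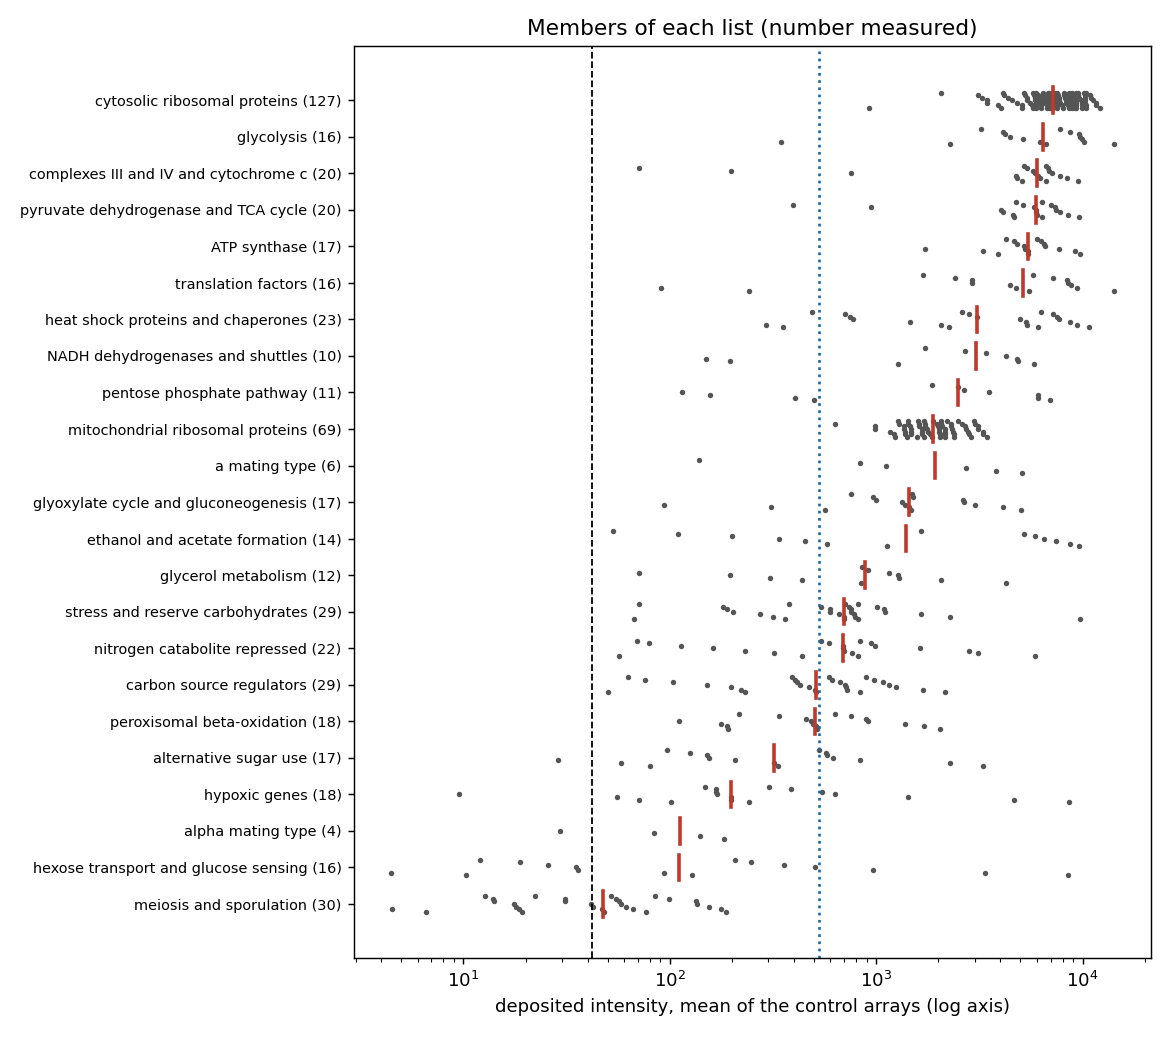
Deposited intensity (log axis, mean of the 2 control arrays) of the measured members of each list, 1 point per gene, with a bar at the list's median, a dashed line at the mean background threshold and a dotted line at the mean of the all-gene medians. Lists are ordered by median rank. Glycolysis, the TCA cycle, complexes III and IV and the ATP synthase cluster near the top of the scale, and the meiosis list straddles the background line.

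Genes of the glyoxylate cycle and gluconeogenesis are known to be repressed by high glucose. All 17 of this list exceeded the threshold on both arrays, as did 94.9% of all genes, so that this count alone does not set the list apart. Of them, 15 stood above the all-gene median, and 3 were among the 545 brightest. The brightest were CIT2 and IDP2, given above, followed by the lactate transporter JEN1 (2952 and 3042). PCK1, which starts gluconeogenesis, read 1452 and 1443, ranking 1094, and FBP1, the fructose bisphosphatase, 559.6 and 567, ranking 2594. Isocitrate lyase, the entry to the glyoxylate cycle, read 1364 and 1397 for ICL1, and its mitochondrial paralog ICL2, of methylcitrate metabolism, 1465 and 1492. Malate synthase read 2618 and 2693 for MLS1 and 235 and 228 for its paralog DAL7, a ratio of 11.5-fold. The lowest members were the carnitine carrier CRC1 (313 and 308) and the acetate transporter ADY2 (95.2 and 92.0), the latter at 2.35 and 2.10 times the threshold.

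The fatty acid list was dimmer. All 18 measured genes of peroxisomal beta-oxidation were well above background on both arrays (94.9% of all genes were), but none was among the 545 brightest and 7 stood above the all-gene median. PEX11, a peroxisomal membrane protein, read 2041 and 2030.5, the thioesterase TES1 1725 and 1673, POX1, the acyl-CoA oxidase, 917 and 901, and POT1, the thiolase, 464 and 500.3. The isomerase genes ECI1 (179 and 177) and DCI1 (109 and 113) were the lowest. The list median of 496 and 509 lay near that of all genes, 526 and 531.

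Genes for other sugars covered a wide range. SUC2, the invertase repressed by glucose, read 2262 and 2287. MAL32, a maltase, read 3296 and 3271 from a probe set marked as shared, the maltose permease genes MAL31 558 and 579 and MAL11 526 and 533, and the activator MAL33 849 and 829.5. CEN.PK113-7D is known to carry a MAL allele that is constitutive, while the array was designed on another reference strain, and how its alleles bind these probes was not tested. Of the galactose genes, GAL10 read 95.8 and 98.5, the permease GAL2 82.3 and 78.5, the galactokinase GAL1 61.7 and 54.3 and GAL7 28.2 and 29.5, the last not well above background on either array. The regulators GAL80 and GAL3 read 612 and 629.8 for GAL80, and 204 and 208 for GAL3. The related genes MPH2 (149.9 and 162, a shared probe set), MAL13 (151 and 151) and IMA1 (129 and 120.3) stood nearer to the galactose genes. Of 17 measured genes, 16 (against 94.9% of all genes) exceeded the threshold on both arrays, 7 stood above the all-gene median, and the list median was 318 and 320.4.

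The NADH dehydrogenases, a shuttle gene and the lactate dehydrogenases were read next. NDE1, an NADH dehydrogenase facing the cytosol, read 5825 and 5760.2, NDI1, which faces the matrix, 3424 and 3398, and NDE2, the second one facing the cytosol, 151 and 149.5. NDE1 exceeded NDE2 by 38.6-fold and NDI1 exceeded it by 22.7-fold, while NDE1 and NDI1 were within the probe effect. GUT2, the mitochondrial glycerol 3-phosphate dehydrogenase of the shuttle, read 4216 and 4335. The lactate dehydrogenases DLD1 and CYB2, which feed cytochrome c, read 4912 and 4861 for DLD1, and 4830.4 and 4842 for CYB2 with a ratio of 1.01-fold. DLD3 (2685 and 2723) and DLD2 (1749 and 1696) were within the probe effect of DLD1, at ratios of 1.81-fold and 2.84-fold.

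Glycerol formation is another sink for cytosolic NADH. GPD1, the osmotically induced glycerol 3-phosphate dehydrogenase, read 1269.8 and 1283, and GPD2, induced without oxygen, 198 and 193, a ratio of 6.53-fold that just exceeds the probe effect, and it fell short with pseudocounts of 16 and 64 (log2 2.61 and 2.37). The phosphatases GPP1 and GPP2 read 1291 and 1293 for GPP1, and 429 and 441 for GPP2. The glycerol kinase GUT1, of glycerol use, read 2066 and 2056, the importer STL1 298 and 311 and the dihydroxyacetone kinase DAK2 71.7 and 70.6. Of the 12 genes of this list, 1 were among the 545 brightest.

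In the pentose phosphate pathway, which supplies NADPH and ribose, the first member of each pair was the brighter by more than the probe effect. GND1 (7029 and 6844) exceeded GND2 (485 and 512) by 13.9-fold, and TKL1 (6023 and 6141) exceeded TKL2 (114 and 115) by 53.0-fold. TAL1 (6061 and 6084) exceeded NQM1 (157 and 156) by 38.8-fold, and SOL3 (2691 and 2668) exceeded SOL4 (402 and 409) by 6.61-fold. The last ratio is the one nearest to the limit, and with a pseudocount of 64 it fell short (log2 2.55). ZWF1, the entry enzyme, read 3496 and 3549. All 11 genes were well above background on both arrays, as were 94.9% of all genes.

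Across the 38 sets of isozymes or paralogs with 2 or more measured members, the brightest member was the same on both arrays in all 38. In 17 sets its ratio to the second exceeded the probe effect, and in 14 it was under 2-fold. Besides those described above, large ratios were found for HYP2, the aerobic initiation factor 5A (8352 and 8598), over the hypoxic ANB1 (234 and 249.7), at 35.1-fold. The proton pump PMA1 (5509 and 5595) exceeded PMA2 (184 and 189) by 29.8-fold. GDH1 (9995 and 9901), which makes glutamate from ammonium, exceeded GDH3 (616 and 623) by 16.1-fold. These 3 ratios all go beyond the probe effect.

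The catalases CTA1, of the peroxisome (516 and 509.8), and CTT1, of the cytosol (77.1 and 65.0), differed by 7.24-fold, a ratio that fell under the limit with pseudocounts of 16 and 64 (log2 2.61 and 2.10). The superoxide dismutases SOD1 (9196 and 9237) and SOD2 (5388 and 5393), the phosphoglucomutases PGM1 (692 and 701) and PGM2 (592 and 599), the glycogen synthases GSY1 (699.6 and 720.1) and GSY2 (369.7 and 390.2) and the HMG-CoA reductases HMG1 (2311 and 2348) and HMG2 (549.7 and 544) stayed within the probe effect. TEF1 is not listed apart from TEF2, and the 2 encode the same protein.

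**Figure D4:**
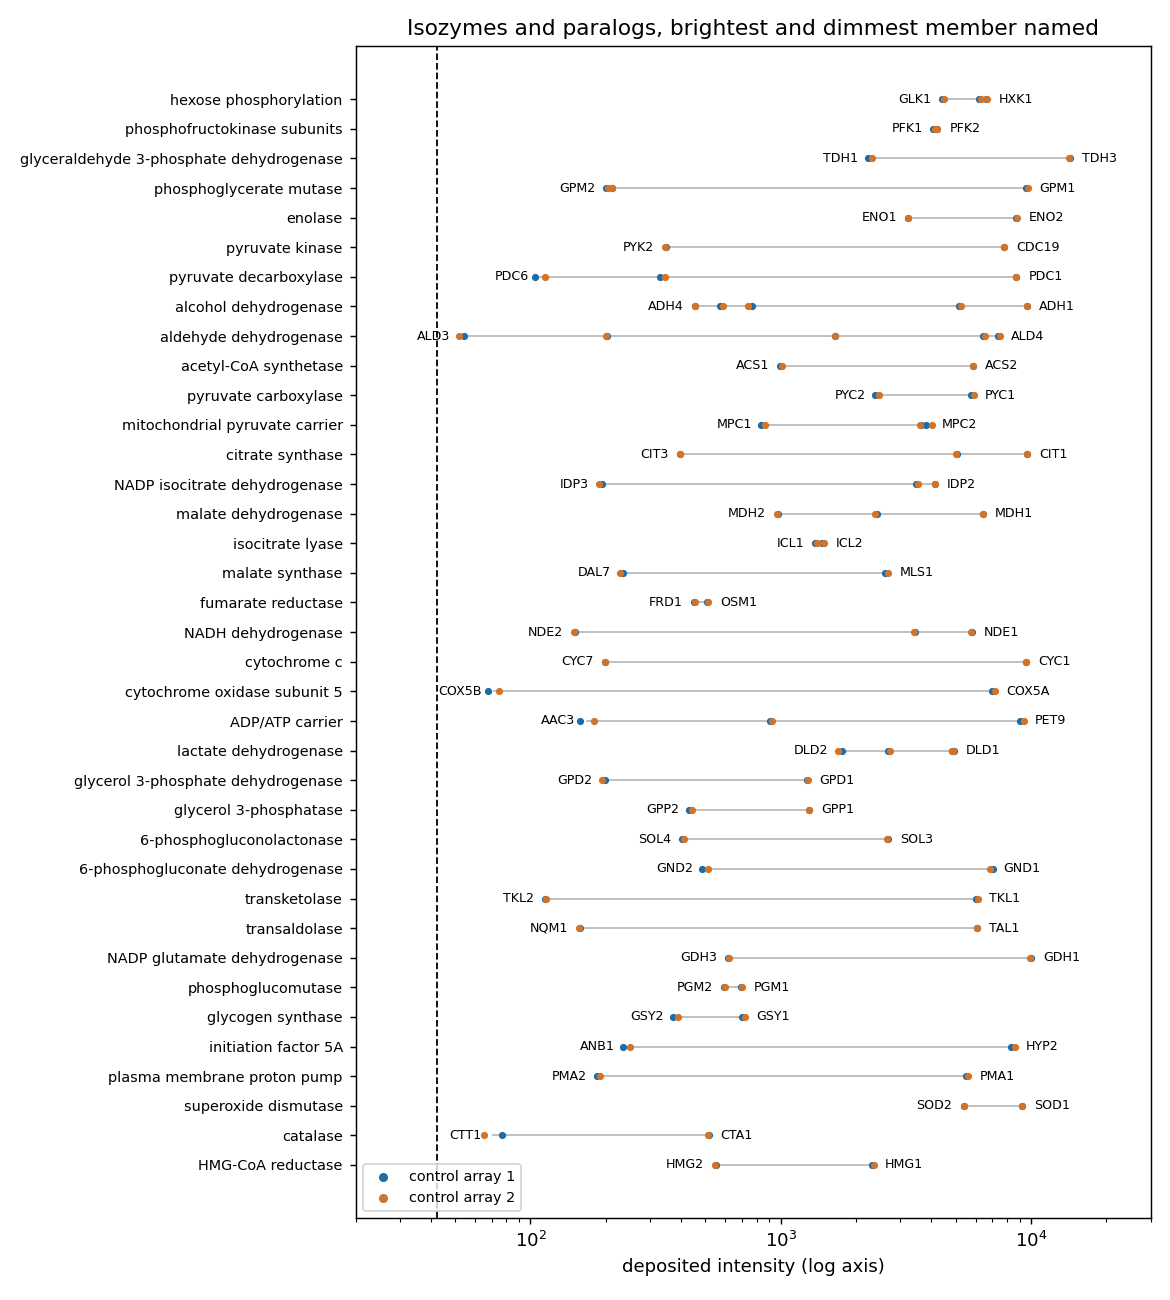
Deposited intensity (log axis) of the members of 37 sets of isozymes or paralogs, hexose transporters left out, with 1 point per gene for each of the 2 control arrays, a grey line from the dimmest to the brightest member, both of which are named, and a dashed line at the mean background threshold. COX5A and COX5B, CYC1 and CYC7, and TKL1 and TKL2 lie far apart, while HXK1 and GLK1, ICL1 and ICL2, and PFK1 and PFK2 lie close together.

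Regulators of carbon use sat near the middle of the scale. All 29 were well above background on both arrays (94.9% of all genes were), none was among the 545 brightest, and the median was 506 and 530.1. HAP4, the subunit that activates respiratory genes through the HAP complex, was the brightest at 2152 and 2183. It was followed by the phosphatase GLC7 (1651 and 1709), the kinase gene SNF1 (1255 and 1239) and SNF4 (1159 and 1158). ADR1, an activator of ADH2 and peroxisomal genes, read 1079 and 1085, and CAT8, an activator of gluconeogenesis, 492 and 530.1. The repressor MIG1 read 607 and 618, its paralogs MIG2 73.3 and 78.6 and MIG3 48.4 and 52.2, and SIP4, an activator of gluconeogenic genes, 67.4 and 58.5. MIG3 lay closest to the threshold.

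Genes of cytosolic translation were bright. Of 127 cytosolic ribosomal protein genes, 125 were among the 545 brightest, and together they held 15.0% and 14.9% of the summed intensity. The lowest were RPL22B (2050.2 and 2055) and RPL15B (950.0 and 896), each the lower copy of a gene pair. Many paralogs of this family are near-identical, so that their separate values are uncertain. The 69 mitochondrial ribosomal protein genes were all above the all-gene median, from IMG1 (3398 and 3489) and MRPS12 (3319 and 3298) to RSM25 (987 and 992) and RSM22 (632 and 626). Of 16 measured translation factor genes 11 were among the 545 brightest, with EFT2, elongation factor 2, at 9282 and 9608 from a shared probe set. The lowest was HEF3, a paralog of the elongation factor YEF3 (8508 and 8402), at 94.7 and 87.0.

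Chaperone genes spanned a wide range. SSB1 (10726 and 10844) and the mitochondrial chaperonin HSP60 (9432 and 9297) led the list of 23, and SSE2 (351 and 354) and HSP30, a membrane heat shock protein (291 and 293), closed it. Among 29 genes of stress and reserve carbohydrates only HOR7 (9758 and 9798) was among the 545 brightest, followed by UGP1, which makes UDP-glucose (2261 and 2295). CTT1 and GRE1, a hydrophilin (66.8 and 67.0), were the lowest. Of 22 genes under nitrogen catabolite repression, glutamine synthetase GLN1 (5813 and 5905) and the ammonium permease MEP2 (3107 and 3124) were the brightest, and the allantoin permease DAL4 (69.1 and 69.2) and the repressor DAL80 (56.0 and 57.9) the dimmest. All 3 lists were well above background on both arrays in every measured member, as were 94.9% of all genes.

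Hypoxic genes were among the dimmest lists, with a median of 196 and 201. The brightest 2 were CPR1 (8594 and 8530.5), a cyclophilin that is not known as a hypoxic gene, and OLE1 (4610.1 and 4679), the fatty acid desaturase that is also needed in air. The cell wall mannoprotein gene TIR1 read 55.4 and 55.5, and its relative DAN1 9.83 and 9.27, the latter not well above background on either array. HEM13, of heme synthesis, read 1385 and 1455, and the repressor ROX1 632 and 635. Of 18 measured genes, 17 exceeded the threshold on both arrays, a share close to the 94.9% of all genes, and 5 stood above the all-gene median. These counts and the list's median include CPR1 and also ROX1, which is a repressor of hypoxic genes.

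Meiosis and sporulation genes, which a haploid in growth is not known to need, gave the lowest list. Of 30 genes, 15 were not well above background on both arrays, against 5.14% of all genes, and none stood above the all-gene median. The brightest were SPS4 (187 and 189.6) and GAS2 (178 and 176). HOP1 (51.6 and 42.7), DIT2 (42.9 and 42.2) and SMK1 (44.2 and 38.6) exceeded the threshold on array 1 and not on array 2. Those under it on both arrays were SPR3, REC104, ZIP2, REC114, MEK1, MEI4, REC102, CDA2, SPS2, SPR28, HOP2 and MEI5, from 30.7 and 31.6 for SPR3 to 5.02 and 3.97 for MEI5. With 7 hexose transporter genes, GAL7, DAN1 and MF(ALPHA)2, they make up the 25 of 555 listed genes that were not well above background on both arrays.

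Over the whole array the 280 genes that were not well above background on both arrays were short, with a median length of 684 bp. Of them 132 (47.1%) had a systematic name only, against 9.16% of all genes.

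Differences between the arrays were small where genes were well above background: 95.3% of these genes differed by less than 0.1 on the log2 scale, and 18 by more than 0.2. The 10 with the largest difference were led by YOR268C (54.3 and 69.2) and IME2, a meiotic kinase (49.0 and 60.2), both near the threshold. PCL10, a cyclin of glycogen control (714 and 867), and RFC1, a subunit of the clamp loader (445 and 538), were higher on array 2 by 1.21-fold each at middle intensity. The others were YOL024W, YSW1, YOR186W and SAE2, higher on array 2, and LIF1 and CTT1, higher on array 1. Genes that were not well above background on both arrays differed more, with a median absolute difference of 0.14 against 0.03 for those that were.

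**Figure D5:**
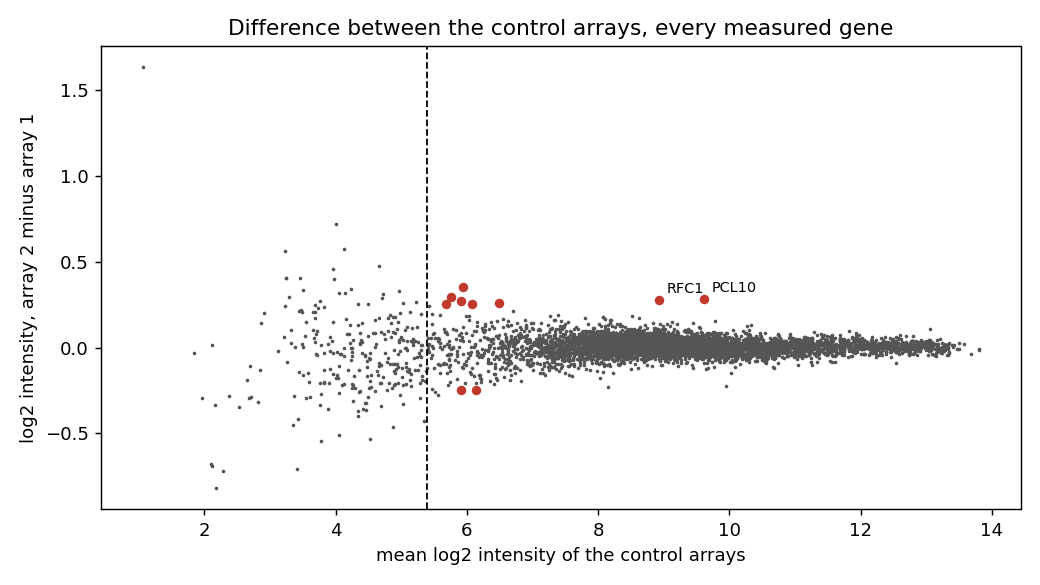
Log2 intensity on array 2 minus that on array 1 against the mean log2 intensity, 1 point per gene for 5449 genes, with a dashed line at the mean background threshold and the 10 largest differences among genes well above background in red. The spread narrows from the left of the dashed line to the right, and PCL10 and RFC1 stand out at middle intensity.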

How the data were processed

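Messenger RNA was measured on Affymetrix Yeast Genome 2.0 arrays, with biotin-labelled RNA, per the labels. The authors deposited 1 table with a linear intensity for each of 10928 probe sets on each of 6 arrays. How probes were summarised and normalized is not stated in the labels or the table. Only the 2 control arrays, assigned by title, were used, apart from the spread within the other pairs.

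Probe sets were named through the array's annotation and updated by Entrez identifier to the R64 gene table: 7245 were named, 5498 matched an S. cerevisiae gene, 1747 that did not (1 of them tied to several genes) served as background, and 3470 unnamed probe sets and the array's 213 controls were not ranked. For the 47 genes with several probe sets the brightest was taken. Values were used as deposited, with a floor of 1 before log2. Background was the 95th percentile of the other named probe sets on each array, and genes were ranked by mean log2 intensity.

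The 24 lists and 40 isozyme sets were written from general knowledge, and the members and lists were chosen with earlier results of these data known. The genes named were the 30 brightest, the members of the isozyme sets, the 2 brightest and 2 dimmest members of each list, list members not well above background, URA3, HAP4, HXK2 and the 10 with the largest difference between arrays. Other list members were named after their values were seen, to give steps of a pathway. The pattern for ribosomal proteins was corrected after the data were read, to leave out a gene of ribonuclease P.

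With 1 group there was no test. The ranking and the background rule were run on simulated data. How often the rule errs for genes near the threshold, or through binding from a brighter paralog, was not tested. Work was done in Python 3.11.15 with pandas 2.3.3 and numpy 2.4.6. The alternatives tried were quantile normalization, median scaling, the mean of a gene's probe sets, each array left out, background at the 90th or 99th percentile or with the unnamed probe sets, pseudocounts of 16 and 64, and subtracted background. Chosen after seeing the data were leaving out probe sets with a suffix for shared transcripts and 2 other measures of the probe effect.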

Additional observations from a re-analysis of the deposited data

Results flagged for a closer look

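Outside the named genes, 322 of 3470 unnamed probe sets (9.28%) exceeded the background threshold on both control arrays, against 94.9% of all genes. The threshold is the 95th percentile of the background probe sets, so that a part of the 322 would pass it without a signal. The report does not use these probe sets. The brightest of them read 9122 and 9031, and 39 exceeded 1000 on both arrays. The annotation used here gives them no gene.

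Of 47 reporter probe sets, so named by the array, 13 exceeded the threshold on both arrays and 5 exceeded 1000. Their targets were not identified here, and whether any of them reads the plasmid was not tested.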

How the results depend on the processing

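The number of genes well above background on both arrays, 5169, ranged from 5049 with background at the 99th percentile to 5240 at the 90th. Without replicate 1 or replicate 2 it was 5170 and 5189. Leaving out probe sets marked as shared gave 5097, and HXT7, TEF2, MAL32 and EFT2 then had no value. The number of listed genes not well above background, 25, was 44 with background at the 99th percentile, 37 when the unnamed probe sets joined the background, 18 at the 90th percentile, and between 22 and 25 with either replicate left out. With the 99th percentile 1 gene of ethanol and acetate formation, 1 of complexes III and IV, 3 carbon source regulators and 3 hypoxic genes were then under the threshold, so that statements about dim genes depend on that choice. All 38 isozyme sets had 1 brightest member on both arrays under quantile normalization, median scaling, the mean of probe sets, both pseudocounts and subtracted background. The number of sets beyond the probe effect, 17, was 15 and 13 with pseudocounts of 16 and 64, 16 and 17 without replicate 1 or 2, 19 with the array's control probe sets as the measure (a limit of 3.71-fold) and 23 with the 75th percentile (2.45-fold). The sets lost were those of GPD1 and CTA1 with a pseudocount of 16, and also of TDH3 and SOL3 with 64. No ratio of a set's brightest to its second member reversed under the alternatives tried. With shared probe sets left out HXT7 had no value, so that its ratio to HXT2 could not be followed there. No paired analysis was possible because the result comes from no test and only 1 group was described. Having 2 arrays limits the precision, and how far the brightest intensities are compressed was not tested.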

Other observations

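A few genes of phosphate starvation were chosen for mention after their values were seen. PHO84, the high-affinity phosphate transporter, read 47.0 and 43.2, SPL2 17.1 and 15.1, and PHM8 28.1 and 24.9, at or near background. Others of the same regulon were not: the acid phosphatase PHO5 read 128 and 119.6, PHO89 282 and 281, and VTC1, of polyphosphate synthesis, 2153 and 2163.

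Other transcripts in the brightest 100 were GCN4, the activator of amino acid synthesis, at 8295 and 8244, MET6, of methionine synthesis, at 9383 and 9276, ILV5, of branched-chain amino acid synthesis, at 8676 and 8836, and the metallothionein CUP1-1 at 8059.8 and 8039. They were chosen after their values were seen, and the array measures transcripts, whereas GCN4 is known to be controlled in its translation.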
